A study of Mus musculus with 8 samples.

Results

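The 41 genes described here are imprinted genes, that is, genes expressed from only the maternal or only the paternal chromosome in at least some tissues. They were given as a list of symbols, and each symbol matched 1 of the 52550 genes in the count files. They fall into 19 clusters or single loci. From textbook knowledge, 11 are expressed from the maternal chromosome, 24 from the paternal chromosome, and 6 are expressed from both in most tissues with a maternal bias in some tissues or transcripts. RNA was not assigned to parental alleles, so a level below is the sum over both chromosomes, and nothing about the state of an imprint can be read from it.

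Imprinting is set in the germline, where eggs and sperm leave DNA methylation on different control regions. After fertilisation these marks are protected from the general loss of methylation, among others by the zinc-finger protein ZFP57 with its partner TRIM28. A control region often acts on several neighbours at once, through a long non-coding RNA that silences genes in cis or through an insulator that decides which gene reaches an enhancer. Many imprinted genes set the growth of the embryo and placenta. In mouse embryonic stem cells (ESCs) imprints are known to be fragile, and cultures with MEK and GSK3 inhibitors lose DNA methylation genome-wide.

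The study asked how loss of Dax1 (Nr0b1), an orphan nuclear receptor encoded on the X chromosome, acts on mouse ESCs in 2 pluripotency states. RNA was sequenced from control ESCs and from Dax1KO ESCs, each grown on gelatin in 2i/LIF or in LIF/serum, all labelled as passage 3, with 2 libraries in each of the 4 groups. 2i/LIF was N2B27 medium with 1 μM PD0325901 (MEK inhibitor), 3 μM CHIR99021 (GSK3 inhibitor) and 10 ng/ml LIF, and LIF/serum was DMEM with 15% FBS and 10 ng/ml LIF. The Dax1KO cells were 1 clone, made in 2i/LIF with lentiviral CRISPR/Cas9, and the study could not keep that clone growing over passages in LIF/serum, so loss of Dax1 cannot be told apart from other differences between this clone and the control cells.

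Libraries held 35911384 to 37286251 counts, and the 41 genes took 0.266% to 0.431% of them. Dax1 itself had counts of 456 and 300 in control and 0 and 0 in Dax1KO cells in 2i/LIF, and 5095 and 4689 in control and 14 and 6 in Dax1KO cells in LIF/serum. The 8 ESC markers checked, among them Pou5f1, Sox2 and Nanog, were high in every library. Chromosome 6 stood apart: its 1054 tested genes had a median Dax1KO over control value that was 0.44 (log2) for 2i/LIF and 0.52 for LIF/serum, where the medians over all 20749 tested genes were -0.01 and 0.01. Nothing in the labels says that the 2 libraries of a group came from separate cultures, so p-values measure only the spread between these libraries, which may be technical.

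Of the 41 genes, 40 had enough counts to be tested. Airn, the paternal antisense RNA that silences Igf2r, was left out of the tests, with counts of 6 and 16 in control and 0 and 3 in Dax1KO cells in 2i/LIF, and of 6 and 2 in control and 10 and 5 in Dax1KO cells in LIF/serum. A gene was called where its adjusted p (edgeR's quasi-likelihood test, Benjamini-Hochberg over all tested genes) was at most 0.05 and its fold change at least 1.2. Throughout, log2 fold changes are given with their standard error (SE), n is 2 libraries a group, and a fold between media is positive where the level was higher in 2i/LIF. Comparisons of genotype and of medium share libraries, so their values for a gene are not independent of each other. Overlapping genes on opposite strands cannot be told apart here, since it is not stated whether counting used strand.

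**Figure D1:**
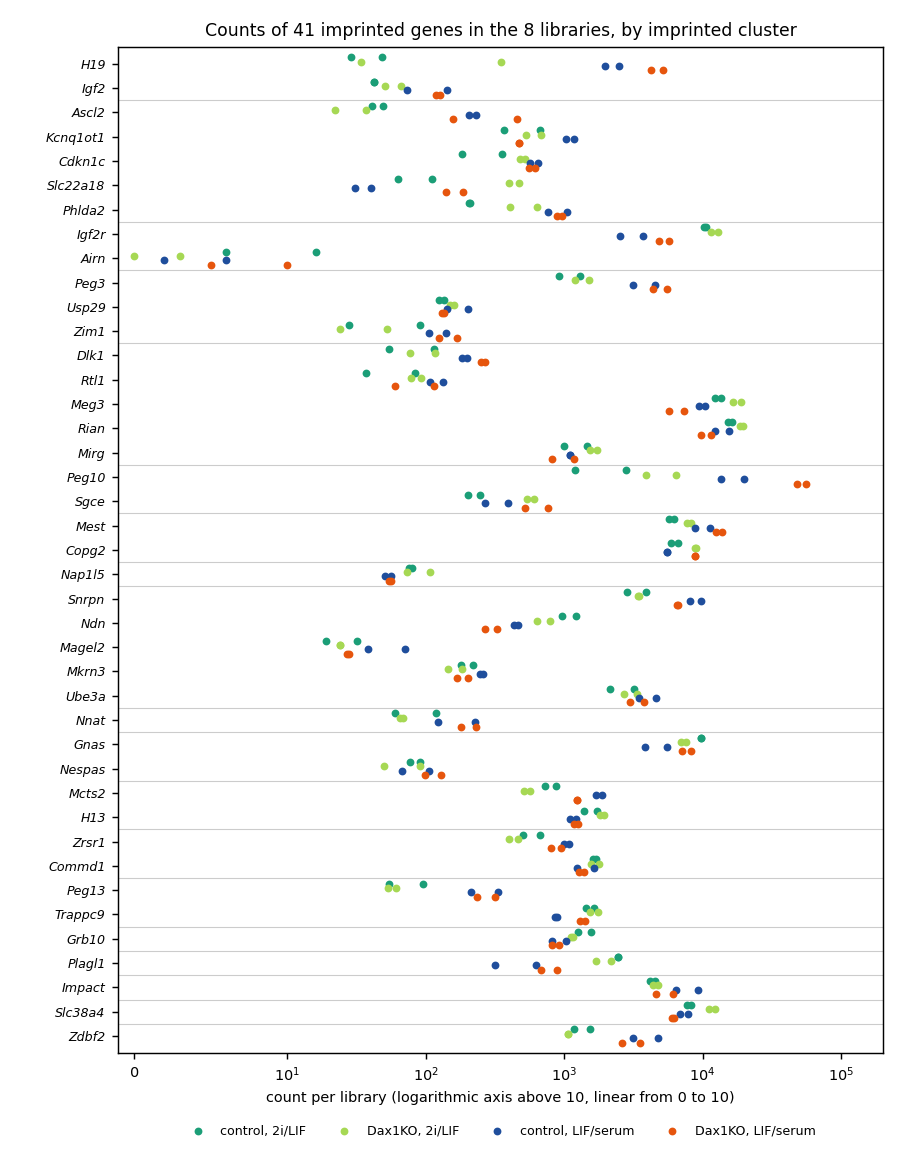
Counts (x axis, counts per library, logarithmic above 10) of the 41 genes (y axis, lines separate clusters) in the 8 libraries, 1 point a library, coloured by group. Counts reach from 0 for Airn to 55927 for Peg10, and the H19 and Peg10 points of LIF/serum lie to the right of those of 2i/LIF.

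More of these genes were called between media than between genotypes. In control ESCs 7 of the 40 tested genes were higher and 16 were lower in 2i/LIF than in LIF/serum, beside 20.3% and 16.5% of all tested genes. In Dax1KO cells 9 were higher and 14 lower, beside 15.2% and 13.7%. The median log2 fold change of the 40 was -0.76 in control and -0.16 in Dax1KO cells, where all tested genes had medians of 0.01 in both. The calls of control and Dax1KO cells, which share no library but come from 1 fit, had 16 genes in common, 69.6% of each list. Each of the 16 moved the same way in both. Of all tested genes, 36.8% were called either way in control and 28.9% in Dax1KO cells, and the overlap of those calls was not counted. Among the 16, Igf2r, Ndn, Plagl1 and Slc22a18 were higher in 2i/LIF. H19, Ascl2, Phlda2, Dlk1, Peg3, Peg10, Mest, Snrpn, Mcts2, Zrsr1, Peg13 and Zdbf2 were lower.

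Grouped by parental expression, the paternal genes stood mostly lower in 2i/LIF. Of 23 tested paternal genes, 12 were called lower and 2 higher in control ESCs (median log2 value -1.05), and 10 lower and 3 higher in Dax1KO cells (median -0.67). Of all tested genes, 16.5% were called lower and 20.3% higher in control ESCs, and 13.7% lower and 15.2% higher in Dax1KO cells. Of 11 maternal genes, 4 were called lower and 3 higher in control ESCs, with a median of 0.06, and 4 lower and 5 higher in Dax1KO cells, with a median of 0.41. Of the 6 genes with maternal bias, 2 were called in control ESCs and 1 in Dax1KO cells, each of them higher in 2i/LIF. These are counts over genes that share clusters, and whether the parental classes differ was not tested.

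Most medium calls did not rest on 1 library. In control ESCs 19 of the 23 calls were kept without control replicate 2 of 2i/LIF and without control replicate 1 of LIF/serum, and 20 to 22 in the other refits, and the genes that lost their call in at least 1 refit were Ascl2, Dlk1, Grb10, Igf2, Kcnq1ot1 and Slc22a18. In Dax1KO cells 15 and 17 of the 23 calls were kept without Dax1KO replicate 2 and replicate 1 of 2i/LIF, 16 and 18 without Dax1KO replicate 2 and replicate 1 of LIF/serum, and 21 or 22 without a control library. Here the genes that lost their call were Dlk1, H13, Mest, Mirg, Nnat, Phlda2, Plagl1, Slc22a18, Zim1 and Zrsr1.

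**Figure D2:**
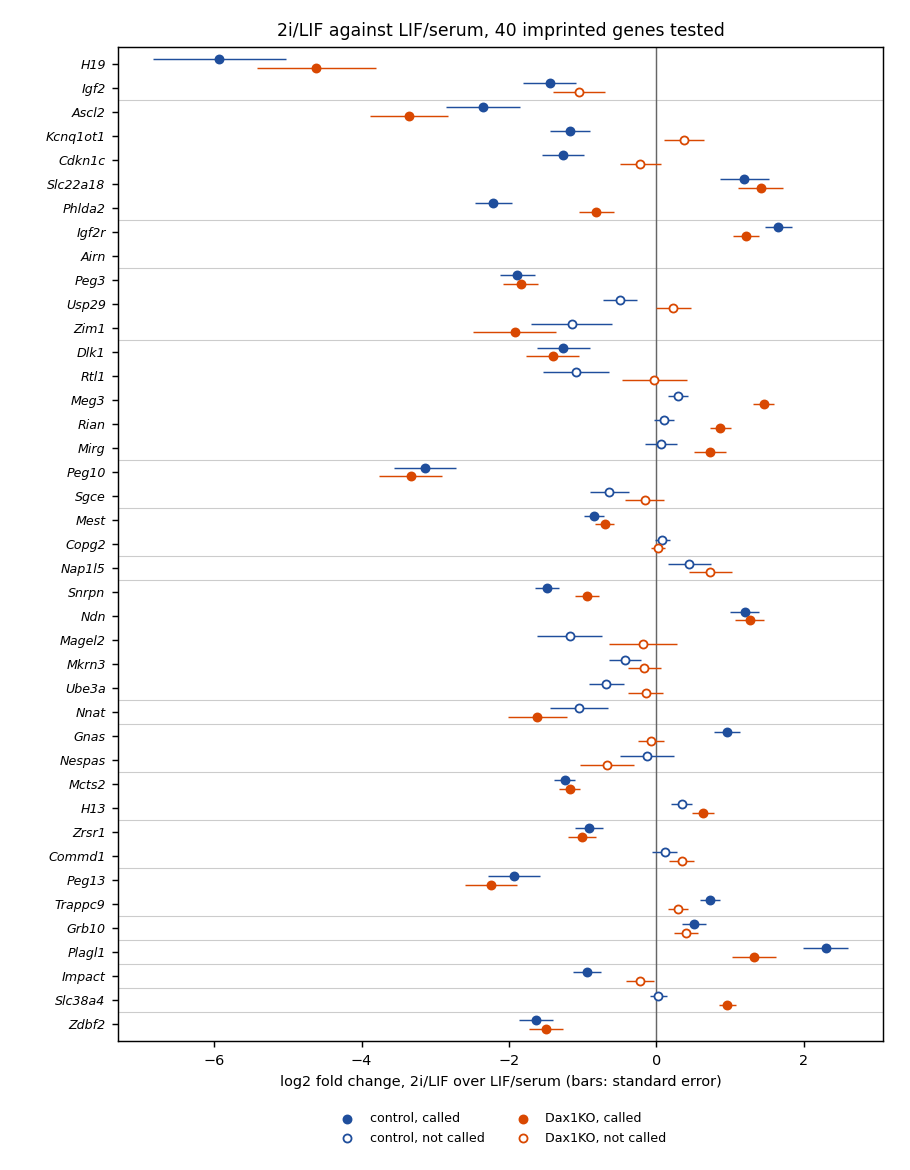
log2 fold change of 2i/LIF over LIF/serum (x axis) for the 40 tested genes (y axis, Airn left blank) in control (blue) and Dax1KO cells (orange). Bars are standard errors and filled points are called genes. H19 has the lowest value in both genotypes, -5.93 and -4.61, and Plagl1 the highest in control ESCs, 2.30.

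Between genotypes fewer genes were called. In 2i/LIF 4 genes were higher in Dax1KO cells (Slc22a18, Phlda2, Sgce and Copg2), beside 1.51% of all tested genes called higher. None was called lower by edgeR, beside 1.65% of all tested genes. At an unadjusted p under 0.05 there were 14 of the 40 in either direction, beside 3712 of all 20749 tested genes. Of the 5 on chromosome 6 there were 4, beside 440 of the 1054 tested genes of that chromosome. DESeq2 called 7 genes, adding Slc38a4 as well as Mcts2 and Ndn, both of the last 2 lower. In LIF/serum 4 genes were higher (Slc22a18, Peg10, Copg2 and Trappc9), beside 8.87% of all tested genes, and 7 were lower (Kcnq1ot1, Meg3, Rian, Ndn, Mcts2, Impact and Slc38a4), beside 5.78%. DESeq2 called 15, adding Gnas, Igf2r, Sgce and Snrpn. The Dax1KO effect differed between media for 2 genes, Meg3 and Slc38a4, beside 2.87% of all tested genes, and DESeq2 called 6, adding Gnas, Kcnq1ot1, Phlda2 and Rian. Among the 35 tested members on other chromosomes, in the same fit, 2 were called higher in Dax1KO cells in 2i/LIF, and in LIF/serum 2 were higher and 7 lower.

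The genotype calls rested on few libraries. Of the 4 calls in 2i/LIF, 0 were kept without control replicate 1 and without either Dax1KO library of that medium, and 1 was kept without control replicate 2 and without either Dax1KO library of LIF/serum. H19 was called instead without Dax1KO replicate 2 of 2i/LIF, and Cdkn1c was newly called without control replicate 2. Of the 11 calls in LIF/serum, 0 were kept without Dax1KO replicate 2 of that medium, 2 without Dax1KO replicate 1, 3 without control replicate 1, 6 without control replicate 2, and 5 to 7 without 1 of the 2i/LIF libraries. Copg2 in 2i/LIF and Trappc9 in LIF/serum lost their call in all 8 refits, Rian, Ndn, Impact and Slc38a4 in LIF/serum in 7, and Phlda2 and Sgce in 2i/LIF and Peg10 in LIF/serum in 6. None of the called folds changed direction in any of these refits.

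**Figure D3:**
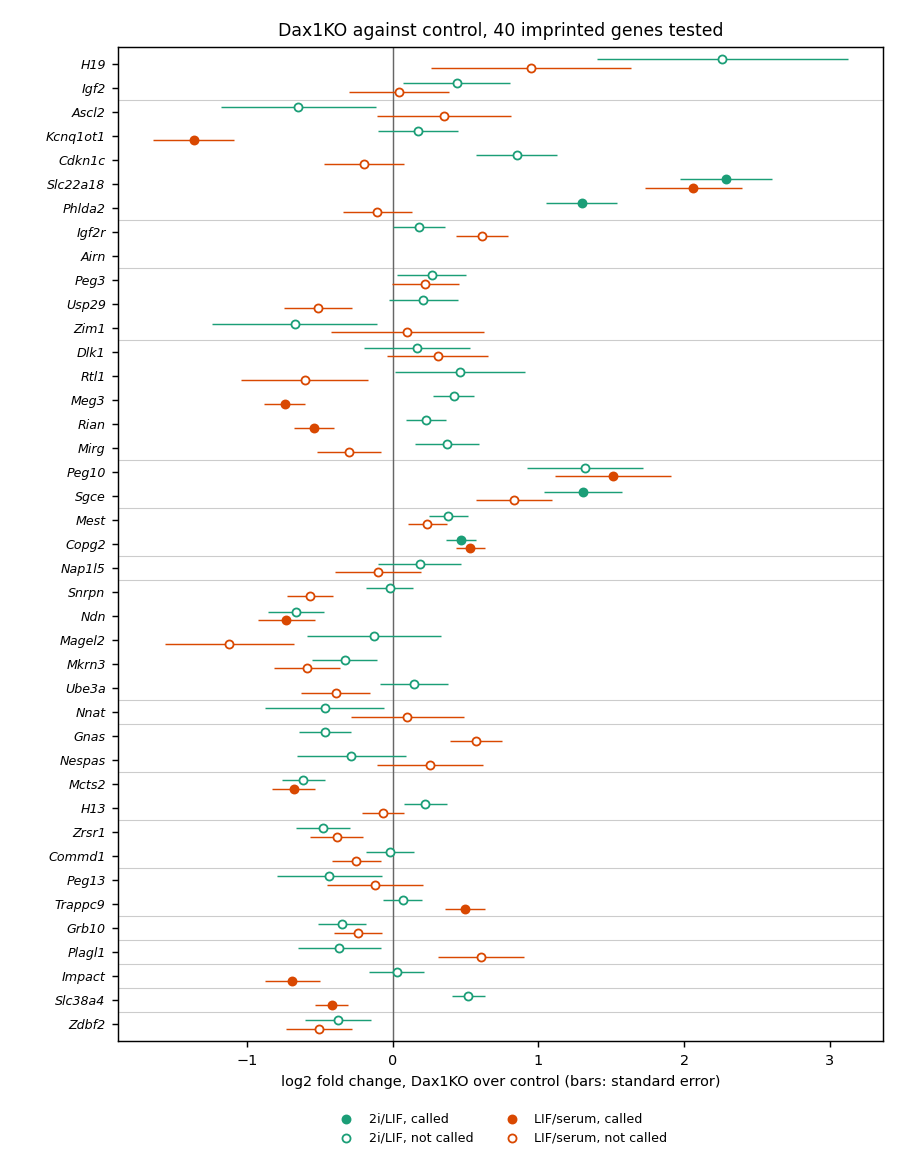
log2 fold change of Dax1KO over control (x axis) for the 40 tested genes (y axis, Airn left blank) in 2i/LIF (green) and LIF/serum (orange). Bars are standard errors and filled points are called genes. Slc22a18 lies above 2 in both media, the chromosome 6 genes from Peg10 to Copg2 lie above 0 in both, and Meg3, Rian and Slc38a4 lie on opposite sides of 0.

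H19, the maternal long non-coding RNA that shares an insulator and enhancers with the paternal growth factor gene Igf2, differed most between media. H19 (chromosome 7, 142575529 to 142578143, minus strand, GRCm38) had counts of 29 and 48 in control and 347 and 34 in Dax1KO cells in 2i/LIF, against 2469 and 1961 in control and 5146 and 4257 in Dax1KO cells in LIF/serum. Each LIF/serum library was far above each 2i/LIF library, and the 2 Dax1KO libraries of 2i/LIF stood far apart from each other. The fold of 2i/LIF over LIF/serum was -5.93 ± 0.90 (SE, log2, adjusted p = 0.00169) in control and -4.61 ± 0.80 (adjusted p = 0.00428) in Dax1KO cells, where it became -7.09 without Dax1KO replicate 1 of 2i/LIF. Between genotypes the groups overlapped in 2i/LIF (2.26 ± 0.86, adjusted p = 0.218), and in LIF/serum both Dax1KO counts were above both control counts without passing the test (0.95 ± 0.69, adjusted p = 0.394). With a separate fit for each medium, H19 was called in LIF/serum. Igf2 was low throughout, with counts of 42 and 42 in control and 66 and 51 in Dax1KO cells in 2i/LIF, and 143 and 73 in control and 118 and 127 in Dax1KO cells in LIF/serum. Igf2 was lower in 2i/LIF in control ESCs (-1.45 ± 0.36, adjusted p = 0.0156), while in Dax1KO cells the value was -1.05 ± 0.35 with adjusted p = 0.0572. The control call of Igf2 was lost without either control replicate of 2i/LIF and without control replicate 1 of LIF/serum, where the estimates stayed between -1.87 and -0.89, and 62.8% of its exon bases are shared with the read-through gene Gm49394.

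The Kcnq1ot1 domain on chromosome 7 holds the paternal long non-coding RNA Kcnq1ot1 and the maternal genes it silences on the paternal chromosome. Slc22a18, a gene for an organic cation transporter (143473736 to 143499334, plus strand), was called higher in Dax1KO cells in both media. Its counts were 63 and 110 in control and 468 and 400 in Dax1KO cells in 2i/LIF, and 31 and 40 in control and 140 and 187 in Dax1KO cells in LIF/serum. Groups did not overlap in either medium. The Dax1KO fold was 2.29 ± 0.32 (adjusted p = 0.0149) in 2i/LIF and 2.06 ± 0.33 (adjusted p = 0.00852) in LIF/serum, and the difference between them was -0.22 ± 0.45 (adjusted p = 0.859). Slc22a18 was also higher in 2i/LIF in both genotypes, by 1.19 ± 0.34 (adjusted p = 0.0249) in control and 1.42 ± 0.31 (adjusted p = 0.0108) in Dax1KO cells, and without control replicate 2 of 2i/LIF the control value was 0.70 and no longer called.

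Kcnq1ot1 had counts of 673 and 364 in control and 529 and 675 in Dax1KO cells in 2i/LIF, and 1168 and 1032 in control and 468 and 471 in Dax1KO cells in LIF/serum. Both Dax1KO counts of LIF/serum lay within the range of the 2i/LIF counts, and both control counts of LIF/serum lay above it. The RNA fell in Dax1KO cells there by 1.37 ± 0.28 on the log2 scale (adjusted p = 0.0178), and it was lower in 2i/LIF in control ESCs (-1.17 ± 0.28, adjusted p = 0.0123), while Dax1KO cells had 0.37 ± 0.28 (adjusted p = 0.359). The difference of the Dax1KO effect between media, -1.54 ± 0.39, did not pass edgeR's test (adjusted p = 0.0835) and was called by DESeq2.

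Phlda2, which restrains placental growth, had counts of 206 and 207 in control and 635 and 407 in Dax1KO cells in 2i/LIF. In LIF/serum its counts were 764 and 1043 in control and 883 and 966 in Dax1KO cells, so the genotypes overlapped there. Its Dax1KO fold was 1.30 ± 0.25 (adjusted p = 0.0363) in 2i/LIF and -0.11 ± 0.24 (adjusted p = 0.809) in LIF/serum, and the difference between media was -1.40 ± 0.34 (adjusted p = 0.0754), which DESeq2 called and edgeR did not. Phlda2 was lower in 2i/LIF in both genotypes, with -2.22 ± 0.25 (adjusted p = 0.000421) in control and -0.81 ± 0.24 (adjusted p = 0.0362) in Dax1KO cells, a value that was -0.53 and not called without Dax1KO replicate 2 of 2i/LIF.

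Cdkn1c, the gene for the cell cycle inhibitor p57, had counts of 184 and 354 in control and 477 and 519 in Dax1KO cells in 2i/LIF, and 650 and 570 in control and 618 and 552 in Dax1KO cells in LIF/serum. Cdkn1c was lower in 2i/LIF in control ESCs (-1.27 ± 0.28, adjusted p = 0.00941), and 30.7% of its exon bases overlap Gm44732 on the other strand. Ascl2, a transcription factor needed by the trophoblast, had counts of 49 and 41 in control and 37 and 22 in Dax1KO cells in 2i/LIF, and 204 and 231 in control and 156 and 452 in Dax1KO cells in LIF/serum. Ascl2 was lower in 2i/LIF in control (-2.36 ± 0.50, adjusted p = 0.00795) and in Dax1KO cells (-3.35 ± 0.53, adjusted p = 0.00264). The Dax1KO value of Ascl2 was -2.37 without Dax1KO replicate 2 of LIF/serum and stayed called. In this domain 4 of 5 genes were called lower in 2i/LIF in control ESCs, beside 16.5% of all tested genes, and 2 of 5 in Dax1KO cells (Ascl2 and Phlda2), beside 13.7%, where Cdkn1c had -0.22 ± 0.27.

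Igf2r, the receptor that removes IGF2 and sorts lysosomal enzymes, was higher in 2i/LIF, while H19 was lower there in both genotypes. It had counts of 10286 and 10630 in control and 11453 and 12866 in Dax1KO cells in 2i/LIF, and 3709 and 2549 in control and 5754 and 4804 in Dax1KO cells in LIF/serum. Both genotypes had more in 2i/LIF, by 1.66 ± 0.18 (adjusted p = 0.000359) in control and 1.22 ± 0.18 (adjusted p = 0.00195) in Dax1KO cells. Its Dax1KO fold in LIF/serum was 0.62 ± 0.18 (adjusted p = 0.0543), with no overlap between the groups.

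In the Peg3 domain, also on chromosome 7, the paternal zinc-finger gene Peg3 was lower in 2i/LIF. Its counts were 1289 and 911 in control and 1204 and 1514 in Dax1KO cells in 2i/LIF, and 4507 and 3148 in control and 5497 and 4357 in Dax1KO cells in LIF/serum. The fold was -1.88 ± 0.24 (adjusted p = 0.00074) in control and -1.84 ± 0.24 (adjusted p = 0.00111) in Dax1KO cells. Usp29, transcribed away from Peg3 on the other strand, was not called by edgeR in any comparison, with counts of 124 to 202 over the 8 libraries and folds between media of -0.49 ± 0.23 in control and 0.23 ± 0.23 in Dax1KO cells. Zim1, a maternal zinc-finger gene, had counts of 90 and 28 in control and 52 and 24 in Dax1KO cells in 2i/LIF, and 141 and 106 in control and 168 and 124 in Dax1KO cells in LIF/serum. Zim1 was lower in 2i/LIF in Dax1KO cells (-1.92 ± 0.56, adjusted p = 0.0357), while control ESCs had -1.15 ± 0.55 (adjusted p = 0.136).

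The Dlk1-Meg3 cluster on chromosome 12 carries 3 maternal non-coding RNAs, Meg3, Rian and Mirg, that lie in a row on the plus strand and host small RNAs. The reference places 1 miRNA hairpin inside Meg3, 3 inside Rian and 14 inside Mirg on their own strand. Meg3 (109541001 to 109571726) had counts of 13483 and 12303 in control and 16533 and 18870 in Dax1KO cells in 2i/LIF, and 10341 and 9444 in control and 7350 and 5701 in Dax1KO cells in LIF/serum. Dax1KO cells thus held the highest counts in one medium and the lowest in the other, with no overlap between genotypes in either. The Dax1KO fold was 0.42 ± 0.14 (adjusted p = 0.168) in 2i/LIF and -0.74 ± 0.14 (adjusted p = 0.0145) in LIF/serum, and the difference between media, -1.16 ± 0.20, passed the test (adjusted p = 0.03). Meg3 was higher in 2i/LIF in Dax1KO cells (1.46 ± 0.14, adjusted p = 0.000311), while control ESCs had 0.30 ± 0.14 (adjusted p = 0.137).

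Rian had counts of 16422 and 15310 in control and 19411 and 18772 in Dax1KO cells in 2i/LIF, and 15582 and 12335 in control and 11458 and 9653 in Dax1KO cells in LIF/serum. The order of the groups was that of Meg3. Rian was lower in Dax1KO cells in LIF/serum (-0.54 ± 0.14, adjusted p = 0.0362), and its fold in 2i/LIF was 0.23 ± 0.14 (adjusted p = 0.45). The difference, -0.77 ± 0.19, was not called by edgeR's main fit (adjusted p = 0.0822). DESeq2 called it, as did edgeR with a replicate block. In Dax1KO cells Rian was higher in 2i/LIF (0.87 ± 0.14, adjusted p = 0.00273). Mirg had counts of 1451 and 999 in control and 1719 and 1539 in Dax1KO cells in 2i/LIF, and 1108 and 1105 in control and 1170 and 816 in Dax1KO cells in LIF/serum, where the genotypes overlapped as raw counts and not after normalisation. Its Dax1KO fold was 0.37 ± 0.22 in 2i/LIF and -0.30 ± 0.22 in LIF/serum, neither of them called. Mirg, too, was higher in 2i/LIF in Dax1KO cells (0.73 ± 0.22, adjusted p = 0.0391).

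The cluster also holds 2 paternal genes of low count. Dlk1, which encodes a transmembrane protein related to Notch ligands, had counts of 54 and 114 in control and 117 and 77 in Dax1KO cells in 2i/LIF, and 198 and 182 in control and 251 and 267 in Dax1KO cells in LIF/serum. Dlk1 was lower in 2i/LIF in control (-1.26 ± 0.36, adjusted p = 0.0267) and in Dax1KO cells (-1.40 ± 0.36, adjusted p = 0.0215), and the control value was -0.82 and not called without control replicate 1 of 2i/LIF, and -1.94 without control replicate 2. Rtl1, a retrotransposon-derived gene with a role in the placenta, was not called by edgeR in any comparison, with counts of 37 to 134 over the 8 libraries. Its Dax1KO estimates, 0.46 ± 0.44 in 2i/LIF and -0.60 ± 0.43 in LIF/serum, had the signs of those of the 3 RNAs. Its value between media in control ESCs, -1.09 ± 0.44 (adjusted p = 0.0882), passed the test without control replicate 1 of 2i/LIF. Within Rtl1 lie 6 hairpins of the maternal antisense strand.

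**Figure D4:**
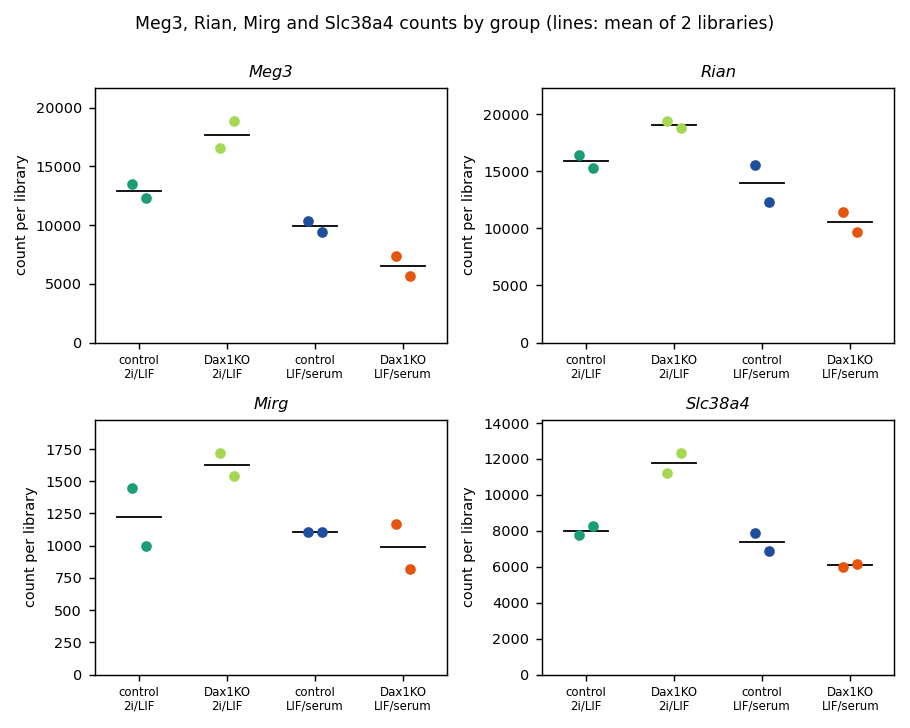
Counts per library (y axis, from 0) of Meg3, Rian, Mirg and Slc38a4 in the 4 groups (x axis), 1 point a library, with a line at the mean of 2 libraries. For Meg3 and Slc38a4 the Dax1KO points are above the control points in 2i/LIF and below them in LIF/serum.

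Slc38a4, a paternal amino acid transporter gene on chromosome 15 (96994820 to 97055956, minus strand), had the other effect that differed between media. Its counts were 7760 and 8242 in control and 11191 and 12329 in Dax1KO cells in 2i/LIF, and 7890 and 6884 in control and 6004 and 6171 in Dax1KO cells in LIF/serum. Control ESCs held about the same level in both media (0.03 ± 0.11, adjusted p = 0.867), and Dax1KO cells held more in 2i/LIF (0.96 ± 0.11, adjusted p = 0.000682). The Dax1KO fold was 0.52 ± 0.11 in 2i/LIF (adjusted p = 0.0523) and -0.42 ± 0.11 in LIF/serum (adjusted p = 0.044), and the difference was -0.93 ± 0.16 (adjusted p = 0.0298). The 2 calls of a difference between media were fragile: both were lost without either library of 2i/LIF in either genotype, without control replicate 1 of LIF/serum and without Dax1KO replicate 2 of LIF/serum. The call of Meg3 was also lost without control replicate 2 of LIF/serum and that of Slc38a4 without Dax1KO replicate 1 of LIF/serum. Over the 8 refits the difference stayed between -1.34 and -0.997 for Meg3 and between -1.03 and -0.84 for Slc38a4.

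The 5 members on chromosome 6 are given beside the median of that chromosome, 0.44 in 2i/LIF and 0.52 in LIF/serum. Peg10, a retrotransposon-derived gene needed for the placenta, and Sgce, the gene for epsilon-sarcoglycan, are paternal genes that start next to each other on opposite strands. Peg10 had counts of 1190 and 2811 in control and 3868 and 6389 in Dax1KO cells in 2i/LIF, and 19796 and 13468 in control and 55927 and 48454 in Dax1KO cells in LIF/serum. Peg10 was lower in 2i/LIF in control (-3.14 ± 0.42, adjusted p = 0.000949) and in Dax1KO cells (-3.33 ± 0.43, adjusted p = 0.00102). Per length, Peg10 was the most abundant of the 41 genes in Dax1KO cells in LIF/serum, at 205 in counts per exon kilobase scaled to library depth, against 72.1 in control ESCs in that medium.

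The Dax1KO fold of Peg10 was 1.51 ± 0.40 (adjusted p = 0.0406) in LIF/serum and 1.32 ± 0.40 (adjusted p = 0.129) in 2i/LIF, and its groups did not overlap in either medium. The 2i/LIF value was 0.83 without control replicate 1 and 2.08 without control replicate 2 of that medium. Sgce had counts of 203 and 247 in control and 539 and 605 in Dax1KO cells in 2i/LIF, and 268 and 390 in control and 519 and 769 in Dax1KO cells in LIF/serum. Its Dax1KO fold was 1.31 ± 0.27 (adjusted p = 0.0439) in 2i/LIF and 0.83 ± 0.26 (adjusted p = 0.0711) in LIF/serum, where it was 0.51 without Dax1KO replicate 2. The quartiles of all chromosome 6 genes were 0.10 and 0.73 in 2i/LIF and 0.05 and 0.96 in LIF/serum, so Peg10 lay above the upper quartile in both media and Sgce in 2i/LIF.

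Copg2, a subunit of the COPI vesicle coat with maternal bias, had counts of 5915 and 6590 in control and 8964 and 8809 in Dax1KO cells in 2i/LIF, and 5570 and 5542 in control and 8857 and 8821 in Dax1KO cells in LIF/serum. Its Dax1KO fold, 0.47 ± 0.10 (adjusted p = 0.0492) in 2i/LIF and 0.53 ± 0.10 (adjusted p = 0.0138) in LIF/serum, lay close to the chromosome's median in both media, and the call in 2i/LIF was lost in each of the 8 refits with 1 library left out. Mest, a paternal gene for a hydrolase-like protein whose exons overlap those of Copg2 on the other strand over 23.1% of their length, had counts of 5717 and 6189 in control and 7740 and 8188 in Dax1KO cells in 2i/LIF, and 11283 and 8864 in control and 13763 and 12392 in Dax1KO cells in LIF/serum. Mest was not called between genotypes (0.38 ± 0.13 and 0.24 ± 0.13), and the value in LIF/serum was 0.42 without control replicate 1 and 0.067 without control replicate 2 of that medium. It was lower in 2i/LIF in control (-0.85 ± 0.13, adjusted p = 0.00205) and in Dax1KO cells (-0.70 ± 0.13, adjusted p = 0.0063). Nap1l5, a paternal gene related to nucleosome assembly proteins, was not called by edgeR in any comparison, with counts of 76 and 79 in control and 108 and 73 in Dax1KO cells in 2i/LIF, and 51 and 56 in control and 54 and 56 in Dax1KO cells in LIF/serum. Its Dax1KO folds were 0.18 ± 0.29 and -0.10 ± 0.30, the lowest of the 5.

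In the Snrpn-Ube3a cluster on chromosome 7, the counterpart of the human region of Prader-Willi and Angelman syndromes, neighbours moved in opposite directions. Snrpn, which encodes a spliceosome protein, had counts of 2858 and 3888 in control and 3386 and 3444 in Dax1KO cells in 2i/LIF, and 8103 and 9705 in control and 6561 and 6678 in Dax1KO cells in LIF/serum. Snrpn was lower in 2i/LIF in control (-1.49 ± 0.16, adjusted p = 0.000354) and in Dax1KO cells (-0.94 ± 0.16, adjusted p = 0.00388), and 27.3% of its exon bases are shared with Snurf and Gm38393 on its own strand. Ndn, which encodes the growth suppressor necdin, had counts of 962 and 1225 in control and 635 and 783 in Dax1KO cells in 2i/LIF, and 435 and 461 in control and 269 and 325 in Dax1KO cells in LIF/serum. Ndn was higher in 2i/LIF in control (1.2 ± 0.19, adjusted p = 0.00227) and in Dax1KO cells (1.27 ± 0.20, adjusted p = 0.00248).

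Dax1KO counts of Ndn were below control counts in both media, with a fold of -0.73 ± 0.20 (adjusted p = 0.0433) in LIF/serum and -0.66 ± 0.19 (adjusted p = 0.116) in 2i/LIF. The other 3 genes of the cluster were not called by edgeR, while DESeq2 called Ube3a between media in control ESCs (-0.68 ± 0.24 by edgeR, adjusted p = 0.0549), and edgeR called both Ube3a and Magel2 there (-1.18 ± 0.45 for Magel2, adjusted p = 0.0723) with a filter of at least 10 counts in every library and without control replicate 2 of LIF/serum. Magel2, related to Ndn, had counts of 19 to 71, and Mkrn3, a ubiquitin ligase gene, had counts of 144 to 258. Ube3a, the ubiquitin ligase gene whose paternal copy is silent in neurons, had counts of 2130 to 4565, and 27.3% of its exon bases overlap genes on the other strand, among them Snhg14. In LIF/serum the Dax1KO estimate was below 0 for all 5 genes of the cluster, from -1.12 for Magel2 to -0.39 for Ube3a, and Ndn alone was called by edgeR. Snrpn (adjusted p = 0.0502) was called by DESeq2, and by edgeR with a filter of at least 10 counts in every library, with the replicate block and without either control library of 2i/LIF.

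On chromosome 2, Gnas, the gene for the G protein subunit that activates adenylyl cyclase, had counts of 9725 and 9776 in control and 6950 and 7564 in Dax1KO cells in 2i/LIF, and 3864 and 5559 in control and 7134 and 8275 in Dax1KO cells in LIF/serum. It was higher in 2i/LIF in control ESCs (0.96 ± 0.18, adjusted p = 0.00404), while Dax1KO cells had -0.07 ± 0.18 (adjusted p = 0.793). The groups did not overlap, yet edgeR's main fit called neither Dax1KO fold (-0.46 ± 0.18 with adjusted p = 0.214 in 2i/LIF, 0.57 ± 0.18 with adjusted p = 0.0662 in LIF/serum), nor their difference of 1.04 ± 0.25 (adjusted p = 0.0727). The fold in LIF/serum and the difference were called by DESeq2 and by edgeR with the replicate block. Nespas, an RNA antisense to the Gnas locus, was not called by edgeR in any comparison, with counts of 50 to 128. Nnat, a paternal gene for a small membrane protein, had counts of 119 and 60 in control and 68 and 65 in Dax1KO cells in 2i/LIF, and 226 and 123 in control and 180 and 231 in Dax1KO cells in LIF/serum. Nnat was lower in 2i/LIF in Dax1KO cells (-1.61 ± 0.41, adjusted p = 0.0201), and control ESCs had -1.05 ± 0.40 (adjusted p = 0.0726). The control value was called by DESeq2, and by edgeR with a filter of at least 10 counts in every library.

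Mcts2, Zrsr1 and Peg13 are paternal genes that lie within the genes H13, Commd1 and Trappc9, which show maternal bias in some tissues or transcripts. The exons of Mcts2 and Peg13 share no bases with those of their host genes, while 9.17% of the exon bases of Zrsr1 overlap exons of Commd1 on the opposite strand, where the reads of the 2 genes cannot be told apart here. Mcts2, a retrogene of the translation factor gene Mcts1, had counts of 878 and 728 in control and 567 and 512 in Dax1KO cells in 2i/LIF, and 1707 and 1878 in control and 1227 and 1237 in Dax1KO cells in LIF/serum. Mcts2 was lower in 2i/LIF in control (-1.25 ± 0.15, adjusted p = 0.000511) and in Dax1KO cells (-1.18 ± 0.15, adjusted p = 0.000925). It was also lower in Dax1KO cells in LIF/serum (-0.68 ± 0.15, adjusted p = 0.0207), with -0.61 ± 0.15 (adjusted p = 0.0693) in 2i/LIF. Its host H13, a signal peptide peptidase gene, had counts of 1395 and 1737 in control and 1824 and 1935 in Dax1KO cells in 2i/LIF, and 1095 and 1225 in control and 1264 and 1180 in Dax1KO cells in LIF/serum, and it was higher in 2i/LIF in Dax1KO cells (0.64 ± 0.15, adjusted p = 0.0136).

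Zrsr1, a retrogene related to the splicing factor U2AF, had counts of 670 and 501 in control and 461 and 401 in Dax1KO cells in 2i/LIF, and 1077 and 999 in control and 955 and 798 in Dax1KO cells in LIF/serum. Zrsr1 was lower in 2i/LIF in control (-0.91 ± 0.18, adjusted p = 0.00631) and in Dax1KO cells (-1.01 ± 0.19, adjusted p = 0.00541). Its host Commd1, a regulator of copper handling and of NF-κB, was not called by edgeR in any comparison, with counts of 1235 to 1794. Peg13, a non-coding RNA, had counts of 96 and 54 in control and 53 and 61 in Dax1KO cells in 2i/LIF, and 330 and 211 in control and 314 and 233 in Dax1KO cells in LIF/serum. Peg13 was lower in 2i/LIF in control (-1.93 ± 0.35, adjusted p = 0.00371) and in Dax1KO cells (-2.24 ± 0.36, adjusted p = 0.00276).

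Trappc9, the host of Peg13 and a gene for a vesicle trafficking subunit, had counts of 1432 and 1637 in control and 1543 and 1761 in Dax1KO cells in 2i/LIF, and 853 and 890 in control and 1309 and 1401 in Dax1KO cells in LIF/serum. It was higher in 2i/LIF in control ESCs (0.73 ± 0.14, adjusted p = 0.00451) and higher in Dax1KO than in control cells in LIF/serum (0.50 ± 0.14, adjusted p = 0.0464), a call that each of the 8 refits without 1 library lost. In each of the 3 pairs the inner gene was thus lower in 2i/LIF in both genotypes, while H13 and Trappc9 were each called higher in 1 genotype and Commd1 was called in neither.

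**Figure D5:**
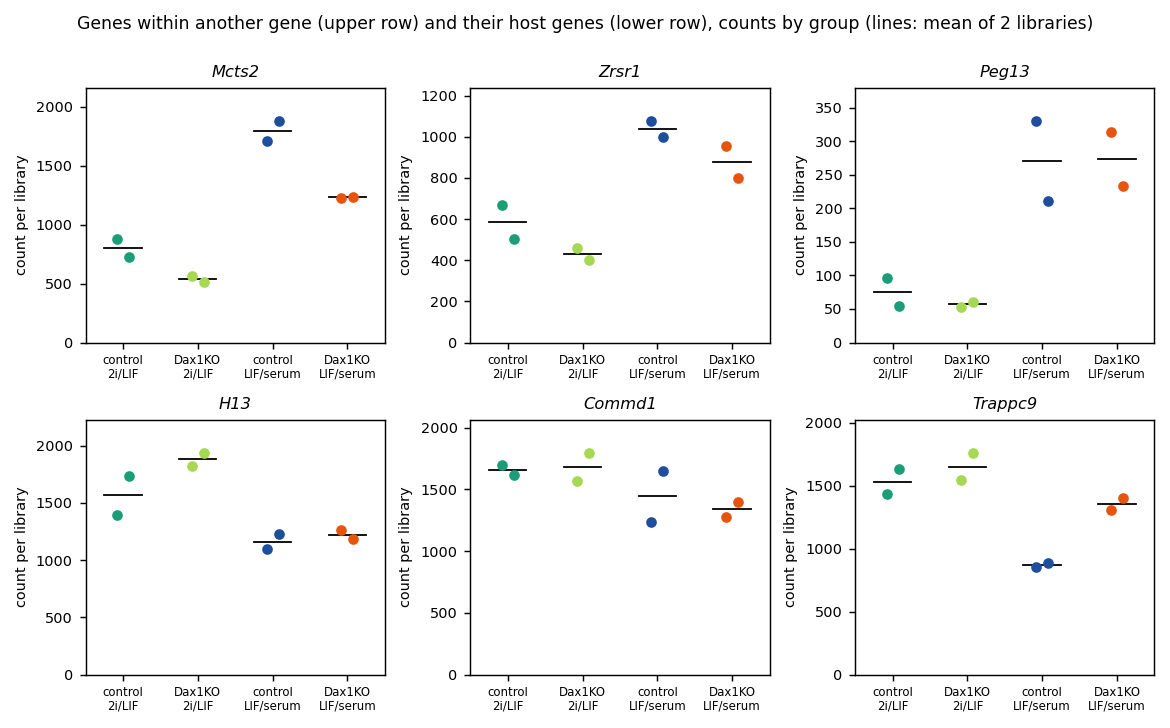
Counts per library (y axis, from 0) of Mcts2, Zrsr1 and Peg13 (upper row) and of their host genes H13, Commd1 and Trappc9 (lower row) in the 4 groups (x axis), 1 point a library, with a line at the mean of 2 libraries. All points of the upper row are lower in 2i/LIF than in LIF/serum, and those of the lower row are not.

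The single loci were split. Plagl1, a paternal zinc-finger gene on chromosome 10, had counts of 2448 and 2436 in control and 1706 and 2186 in Dax1KO cells in 2i/LIF, and 621 and 315 in control and 888 and 681 in Dax1KO cells in LIF/serum. It was higher in 2i/LIF in control (2.30 ± 0.30, adjusted p = 0.000853) and in Dax1KO cells (1.33 ± 0.29, adjusted p = 0.0119). Grb10, an adaptor that dampens insulin signalling, had counts of 1256 and 1553 in control and 1149 and 1121 in Dax1KO cells in 2i/LIF, and 1035 and 820 in control and 909 and 820 in Dax1KO cells in LIF/serum. It was higher in 2i/LIF in control ESCs (0.51 ± 0.17, adjusted p = 0.042), a call that was lost in 6 of the 8 refits with 1 library left out, where the fold stayed between 0.31 and 0.69.

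Zdbf2, a paternal zinc-finger gene on chromosome 1, had counts of 1528 and 1177 in control and 1073 and 1069 in Dax1KO cells in 2i/LIF, and 4732 and 3151 in control and 3512 and 2607 in Dax1KO cells in LIF/serum. Zdbf2 was lower in 2i/LIF in control (-1.63 ± 0.23, adjusted p = 0.00117) and in Dax1KO cells (-1.50 ± 0.23, adjusted p = 0.00234). Impact, a paternal gene for an inhibitor of the stress kinase GCN2, had counts of 4502 and 4175 in control and 4344 and 4734 in Dax1KO cells in 2i/LIF, and 9224 and 6443 in control and 6116 and 4589 in Dax1KO cells in LIF/serum. The higher level of control ESCs in LIF/serum (-0.94 ± 0.19 between media, adjusted p = 0.00647) was not seen as a call in Dax1KO cells (-0.22 ± 0.19, adjusted p = 0.43). Impact was lower in Dax1KO cells in LIF/serum (-0.69 ± 0.19, adjusted p = 0.047), a value that was -0.41 and not called without control replicate 1 of that medium.

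Promoter sequences are shown for 4 of the 11 members called between genotypes in LIF/serum, since ZFP57 binds the hexamer TGCCGC when it is methylated. The hexamer was looked for on both strands (GCGGCA on the printed strand for the other one) in the 250 bases before each RefSeq gene start (GRCm38.p6), and no other motif was searched. Promoters were held for 32 of the 41 genes, and 8 of these 32 (25%) had the hexamer in at least 1 promoter, beside 9.84% of the 27025 genes with a promoter. Counted by promoter, since members have more promoters a gene, 9 of 49 (18.4%) held it, beside 8.68% of all 32851, where 2 of the 9 are promoters of Mest that overlap and hold the same matches, and the median number of CpG sites was 10 in the members' promoters and 6 in all. The promoters of Meg3 (chr12:109540746-109540995, plus strand) and Mcts2 (chr2:152686898-152687147, plus strand) held 1 match each, in capitals, and 10 and 20 CpG sites. Those of Kcnq1ot1 (chr7:143296548-143296797, minus strand) and Slc22a18 (chr7:143473539-143473788, plus strand) held no match, with 5 and 0 CpG sites. Bases past the gene start and control regions outside these 250 bases were not searched, so a locus without a match here may hold the hexamer elsewhere.
Meg3: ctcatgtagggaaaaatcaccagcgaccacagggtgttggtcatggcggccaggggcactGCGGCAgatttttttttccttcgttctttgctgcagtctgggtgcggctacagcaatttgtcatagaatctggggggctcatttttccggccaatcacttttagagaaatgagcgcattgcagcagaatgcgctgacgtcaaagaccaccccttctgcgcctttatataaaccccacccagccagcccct
Mcts2: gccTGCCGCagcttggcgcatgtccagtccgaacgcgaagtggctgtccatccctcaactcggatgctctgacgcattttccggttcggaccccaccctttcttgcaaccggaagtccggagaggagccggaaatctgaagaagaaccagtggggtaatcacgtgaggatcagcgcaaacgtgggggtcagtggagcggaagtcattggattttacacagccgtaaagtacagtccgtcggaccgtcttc
Kcnq1ot1: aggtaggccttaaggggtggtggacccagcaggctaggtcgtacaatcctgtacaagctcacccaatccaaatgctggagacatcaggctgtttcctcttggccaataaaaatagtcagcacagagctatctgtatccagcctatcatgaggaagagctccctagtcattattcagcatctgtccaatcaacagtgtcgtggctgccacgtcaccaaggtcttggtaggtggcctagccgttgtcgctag
Slc22a18: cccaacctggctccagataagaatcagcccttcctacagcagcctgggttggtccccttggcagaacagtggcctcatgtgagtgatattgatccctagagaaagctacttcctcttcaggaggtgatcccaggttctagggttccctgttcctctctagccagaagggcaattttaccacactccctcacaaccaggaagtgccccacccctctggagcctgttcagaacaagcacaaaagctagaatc

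Genes that protect imprints or set DNA methylation were also read, from a list of 16 genes, each of them tested. Between genotypes in 2i/LIF none was called by edgeR, beside 3.16% of all tested genes called either way. At an unadjusted p under 0.05 there were 4 of the 16, beside 3712 of all 20749 tested genes. In LIF/serum 2 were called by edgeR, beside 14.7% of all tested genes. Tet3, a methylcytosine oxidase on chromosome 6, was higher in Dax1KO cells, with counts of 1093 and 918 against 453 and 305 in control (1.27 ± 0.34, adjusted p = 0.0446), and Hells, a chromatin remodeller needed for DNA methylation, was lower, with 14335 and 14769 against 22606 and 18705 (-0.64 ± 0.18, adjusted p = 0.0479). Between media 7 of the 16 were called in each genotype, 3 higher and 4 lower in 2i/LIF in control ESCs, and 4 higher and 3 lower in Dax1KO cells, that is 43.8% of the list in each, beside 36.8% and 28.9% of all tested genes. Dnmt3l, a cofactor of the de novo methyltransferases, was lower in 2i/LIF in control (-2.42 ± 0.29, adjusted p = 0.000541) and in Dax1KO cells (-2.37 ± 0.29, adjusted p = 0.000789), and Dnmt1, the maintenance methyltransferase, was higher (0.81 ± 0.14, adjusted p = 0.00355, and 0.66 ± 0.14, adjusted p = 0.0113). Zfp57 itself was not called in any comparison, with counts of 2489 and 2214 in control and 2074 and 6815 in Dax1KO cells in 2i/LIF, and 3640 and 1968 in control and 3945 and 2150 in Dax1KO cells in LIF/serum.

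Several imprinted genes are abundant in extraembryonic and mesenchymal cells, and some markers of such cells moved with genotype. Of all tested genes, 1.51% were called higher and 1.65% lower in Dax1KO cells in 2i/LIF, and 8.87% and 5.78% in LIF/serum. The summed normalised counts of 7 primitive endoderm markers (Gata6, Gata4, Sox17, Sox7, Dab2, Pdgfra and Foxa2) were 4000 to 5599 in control and 12481 to 14792 in Dax1KO cells in LIF/serum, with 5 of 7 called higher, and 1075 and 1091 to 1399 in 2i/LIF, with 1 of 7 called higher. Those of 7 trophoblast markers were 3749 to 3800 in control and 4452 to 4980 in Dax1KO cells in LIF/serum, and 3815 to 4171 and 5318 to 5411 in 2i/LIF, and Cdx2 was at 0 in each 2i/LIF library. Of these 7, 2 were called higher in each medium and 1 lower in LIF/serum. Mean normalised counts in control and Dax1KO cells in LIF/serum were 1253 and 1825 for Krt8, 954 and 1620 for Krt18, 87.7 and 371 for Hand1, and 1421 and 849 for Tfap2c. In 2i/LIF these means were 686 and 1913 for Krt8, 348 and 759 for Krt18, and 10 and 28.7 for Elf5. They were lower in Dax1KO cells there for Gata3 (124 and 45.8), Hand1 (113 and 70.2) and Tfap2c (2711 and 2547). Sums of 5 fibroblast markers in 2i/LIF were 1869 to 2363 in control and 1263 to 1348 in Dax1KO cells, with 1 of 5 called lower. In LIF/serum they were 458 to 483 and 1434 to 1498, with 2 of 5 called higher and Postn and Lum at 0. Thy1 made up most of this sum, with means of 411 in control and 1269 in Dax1KO cells in LIF/serum. The sums of 5 mesoderm markers were 365 to 413 in control and 685 to 744 in Dax1KO cells in LIF/serum, with 1 called higher and Eomes, at 302 and 624, as its largest part, and those of 4 neural markers were 1046 to 1070 and 656 to 690, with 1 called lower. Fewer cells of a type and less RNA per cell cannot be told apart in these bulk samples, and the part of these cell types in the levels of the imprinted genes was not tested.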

How the data were processed

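RNA was extracted with TRIzol and a miRNeasy kit and sequenced on an Illumina platform. Per the submitters' processing notes, the authors used HISAT2 2.0.4, the build mm10 and DESeq2, and deposited raw counts per gene in 1 file a library. The counter, its annotation and its use of strand are not given in the sources used here. Low counts pile up at 3, 6, 8 and 11, so 1 count need not be 1 independent fragment, and dividing counts by 3 was tried. Gene IDs were paired with symbols and positions through GENCODE vM21 (GRCm38).

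Members and lists were chosen with earlier results of these data known. Every member is accounted for by name. Members called in any comparison and those on chromosome 6 are given with each library's count, and the others by range.

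The 8 libraries were grouped by their titles. The main test was edgeR 4.0.16 (R 4.3.3) with TMM factors, filterByExpr, 4 group means and the quasi-likelihood test, on 20749 genes, with Benjamini-Hochberg adjustment. The Dax1KO effect was tested in each medium, as was its difference between media (called on adjusted p alone), and 2i/LIF was tested against LIF/serum in each genotype. The code was tested on simulated data. Of planted log2 changes of 1, 21.9% were called between genotypes in 2i/LIF and 19.6% in LIF/serum, and of those of 2, 63.5% and 69.4%. False calls were 12 of 94 and 6 of 93. A gene that was not called may thus still differ. Alternatives were DESeq2 1.42.0, other factors, filters, fold limits and fits, a replicate block, fits without chromosome 6 and leaving out each library. Factors computed without chromosome 6 were chosen after seeing the data. Sequences came from RefSeq tables, and 9 members had no entry.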

Additional observations from a re-analysis of the deposited data

Results flagged for a closer look

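2 of the 40 tested genes were set apart because the Dax1KO effect differed between media by a test of the difference itself (edgeR, adjusted over all tested genes), beside 2.87% of all tested genes. Both calls were lost without the filter on low counts, and both were fragile to leaving out 1 library. For Meg3 the effect in LIF/serum minus that in 2i/LIF was -1.16 ± 0.20 (SE, log2, adjusted p = 0.03), with both Dax1KO libraries above both control libraries in 2i/LIF and below them in LIF/serum. For Slc38a4 it was -0.93 ± 0.16 (adjusted p = 0.0298), with the same order of the libraries. Of 7 primitive endoderm markers 5 were called higher in Dax1KO cells in LIF/serum, beside 8.87% of all tested genes, and their part in either result was not tested.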

How the results depend on the processing

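The number of called imprinted genes moved by more than 1.5 times under several alternatives. Between genotypes in 2i/LIF, 4 genes were called, 7 with DESeq2, 0 without a filter on low counts (13 at an unadjusted p under 0.05) and 2 with separate fits for each medium. Without the genes of chromosome 6, 2 were called, since Copg2 and Sgce were no longer in the fit. In LIF/serum, 11 were called, 4 without the filter, 6 with separate fits, 7 without the genes of chromosome 6 (Copg2 and Peg10 were no longer in the fit, and Impact and Slc38a4 no longer passed), and 3 at a fold of at least 2. For the difference between media, 2 were called, 6 with DESeq2 and 0 without the filter (9 at an unadjusted p under 0.05). Apart from the genes taken out of the fit, the cause of these moves was not tested. Leaving out 1 library at a time gave 0 to 4 genes in 2i/LIF, 0 to 8 in LIF/serum, 0 to 2 for the difference, 19 to 25 between media in control and 15 to 23 in Dax1KO cells. Such a refit leaves 1 group with 1 library, which is assumed to vary like the others. For the called values and the chromosome 6 genes, taken over the alternatives, 1145 estimates kept their side of the threshold, 180 no longer passed it, 3 newly passed it and no called value changed sign. Genes outside this set were also newly called, such as Gnas, Igf2r and Snrpn in LIF/serum with DESeq2. Values that were not called changed sign in some refits, among them Nap1l5 in 2i/LIF and the differences between media of Peg10, Mest, Copg2 and Nap1l5.

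The replicate numbers in the titles are not stated to pair libraries, and the deviations of equally numbered libraries correlated at 0.08 (2i/LIF) and 0.108 (LIF/serum). With the replicate block, 2 genes were called in 2i/LIF, 14 in LIF/serum, 4 for the difference, 25 between media in control and 22 in Dax1KO cells. With 2 libraries a group, the standard errors of H19, 0.69 to 1.10 (log2), and the low counts of Airn limit what can be seen of these genes.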

Other observations

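A second list of 40 imprinted genes not described above was read the same way, and 30 had enough counts to be tested. Between genotypes in 2i/LIF, Sfmbt2, a Polycomb-related gene with a role in the placenta, was higher in Dax1KO cells, with counts of 3736 and 4311 against 1622 and 1933 in control (1.14 ± 0.22, SE, log2, adjusted p = 0.0401), and Ddc, the gene for DOPA decarboxylase, was lower, with 606 and 526 against 910 and 822 (-0.65 ± 0.14, adjusted p = 0.05), beside 1.51% and 1.65% of all tested genes called higher and lower. In LIF/serum 4 of the 30 were higher and 4 lower, beside 8.87% and 5.78%. Of the 4 higher genes, Ppp1r9a (1.24 ± 0.27, adjusted p = 0.0229) and Pon3 (0.90 ± 0.22, adjusted p = 0.0301) lie on chromosome 6, and Dhcr7 and Dio3 do not. Atp10a, a lipid flippase gene near Ube3a, had counts of 88 and 118 in Dax1KO against 319 and 413 in control cells (-1.97 ± 0.27, adjusted p = 0.00514). Smoc1 had 864 and 671 against 1358 and 1395 (-0.98 ± 0.15, adjusted p = 0.0067). Dhcr7, the last enzyme of cholesterol synthesis, had 5705 and 5681 against 1424 and 2260 (1.49 ± 0.23, adjusted p = 0.00786). Zfp264 had 240 and 315 against 438 and 456 (-0.82 ± 0.18, adjusted p = 0.0217). The Dax1KO effect differed between media for Sfmbt2 (-1.54 ± 0.32, adjusted p = 0.0466), whose counts in LIF/serum were 2599 and 1597 in control and 1900 and 1612 in Dax1KO cells.

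Between media, 9 of the 30 were higher and 2 lower in 2i/LIF in control ESCs, beside 20.3% and 16.5% of all tested genes, and 11 higher and 5 lower in Dax1KO cells, beside 15.2% and 13.7%. Dio3, a paternal gene for a thyroid hormone deiodinase at the far end of the Dlk1-Meg3 cluster, was higher in 2i/LIF in control (3.55 ± 0.18, adjusted p = 1.9e-05) and in Dax1KO cells (2.93 ± 0.17, adjusted p = 3.77e-05), while Dlk1, the paternal gene at the other end, was lower in both (-1.26 ± 0.36 and -1.40 ± 0.36).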
